A study of Homo sapiens with 8 samples.

Results

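The 5'UTR crosslink sites of this series were the single nucleotides at which dyskerin, GAR1 or control immunoglobulin (IgG) libraries had a significant iCLIP site inside the 5' untranslated region of a protein-coding transcript. A site was a member if it lay on the same strand in a 5'UTR of a basic protein-coding transcript of GENCODE 44, in no coding sequence, and over 100 nt from any snoRNA or scaRNA. Of 1623913 distinct site positions in the 8 libraries, 22990 met this rule, in 2358 of the 19104 genes that had an eligible 5'UTR position. Of the members, 78.9% lay on the MANE Select transcript of their gene. The rule used position only and no measured level.

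The libraries came from nuclei of U2OS, a human osteosarcoma cell line, in which proteins had been joined to the RNAs they touch by ultraviolet light. RNA fragments were recovered with an antibody against dyskerin, with an antibody against GAR1, or with mouse IgG, and cDNAs were counted at the position where they mark a crosslink. Whether the deposited position is the crosslinked base itself or the base before it was not settled. The groups were dyskerin, GAR1, the IgG controls labelled for dyskerin and the IgG controls labelled for GAR1, with 2 libraries each. No cell had been treated or altered, and the groups differed in the antibody on the beads or, for the pair of IgG groups, in the set they were labelled for. The study lists the dyskerin antibody as mouse and the GAR1 antibody as rabbit, so mouse IgG matched the species of the first and not of the second. The labels do not say whether replicates were separate cultures, so any p-value covers only how these libraries varied, which may be technical. Peak cDNAs numbered 585454 to 1976518 in the 4 antibody libraries and 8183 to 295255 in the 4 IgG libraries, with 8183 in the second library of the IgG dyskerin set and 10701 in that of the IgG GAR1 set. A count of 3 cDNAs corresponded to 1.77 and 1.60 cDNAs per 1000000 peak cDNAs (CPM) with dyskerin and to 367 CPM in the shallowest IgG library, where most 5'UTR levels described below could therefore not be seen. Of the 8 genes listed as markers of mesenchymal cells, 5 had sites in both dyskerin libraries. Of 4 markers each, epithelial and hepatocyte cells had 1 with a site in any library and blood cells 0, and none of these 3 lists had a marker with sites in both dyskerin libraries.

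The 5'UTR is the part of an mRNA between the cap and the start codon. The small ribosomal subunit is recruited at the cap and scans along it, and its length, structure and upstream AUG codons help to set how often an mRNA is translated. Dyskerin makes pseudouridine within H/ACA complexes and GAR1 is another core protein of these, which are known for modifying rRNA and spliceosomal snRNA under the direction of guide RNAs.

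The strongest single sites are shown as examples, and they held more cDNAs than most members. The windows below are the 25 bases centred on the 12 highest sites called in both dyskerin libraries, at most 1 per gene and with none printed for PABPC1, and on the further sites that led both GAR1 libraries. They are read from the hg38 genome 5' to 3' along the transcript, as DNA, and the capital letter marks the position deposited as the crosslink site.
WDR74, chr11:62841722-62841746, minus strand: atacgtcctctaTccgaggacaata
NTM, chr11:131370726-131370750, plus strand: agcaacacaatcTatcaggaaagaa
DHRS2, chr14:23636487-23636511, plus strand: aaggtctgcaacTtcactcctgggg
ATN1, chr12:6933966-6933990, plus strand: caggcagaggagAatggggtctcca
TRA2A, chr7:23522240-23522264, minus strand: ctattttgaattGtttgaattgggg
RCC1, chr1:28506033-28506057, plus strand: ttttctctctccTttttggagacag
TPM1, chr15:63042803-63042827, plus strand: gccccagggcccCtcgccgccgcca
TPM2, chr9:35689850-35689874, minus strand: cagcccagtccgTccggtcctcacc
TOP2A, chr17:40417792-40417816, minus strand: cttgagccccttCacgaccgtcacc
HNRNPH1, chr5:179623147-179623171, minus strand: tttgcagtttgtTtcgacgccggac
RFNG, chr17:82051401-82051425, minus strand: ggcccccggaggCtccgcgcggggc
C12orf57, chr12:6943815-6943839, plus strand: gcagtgttacagCtcttttagaatt
ZZZ3, chr1:77682615-77682639, minus strand: tggatggcggagCcttgggttccgg
TNFSF13, chr17:7558622-7558646, plus strand: accctggacactGcccagcttggcc
RELN, chr7:103989377-103989401, minus strand: cgagcggcgcgtAgggcgcgcggcg

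The WDR74 position had 105 and 246 cDNAs with dyskerin, 63 and 659 with GAR1, 4 and 0 in the IgG dyskerin set, and 47 and 7 in the IgG GAR1 set, and it was the highest 5'UTR site of both dyskerin libraries and of both GAR1 libraries. It lies inside a U2 snRNA gene, as described below. The NTM position, 69 bases before the start codon of a cell adhesion protein, had 29 and 62 cDNAs with dyskerin, 7 and 4 with GAR1, 5 and 0 in the IgG dyskerin set, and 1 and 0 in the IgG GAR1 set. The windows of TOP2A, a topoisomerase, TPM1, a tropomyosin, and ATN1, a transcriptional corepressor, lie close to a start codon, at 13, 15 and 24 bases before it. The ATN1 position had 36 and 43 cDNAs with dyskerin and 4 and 0 in the IgG dyskerin set. The RCC1 position, the 3rd base of its transcript, had 25 and 41 cDNAs with dyskerin and none in the other 6. The TNFSF13 and RELN positions were called in both GAR1 libraries, with 4 and 9 and with 4 and 5 cDNAs, and in no other library.

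The 5'UTRs held a small share of the crosslinks in every library, without scaling to their length. They took 1.01% and 1.32% of peak cDNAs with dyskerin (1.16% ± 0.218, SD, n = 2), 0.122% and 0.219% with GAR1 (0.170% ± 0.0686, n = 2), 0.550% and 0.599% in the IgG dyskerin set (0.574% ± 0.0344, n = 2), and 0.134% and 0.430% in the IgG GAR1 set (0.282% ± 0.209, n = 2). Both dyskerin libraries stood above the other 6, and both GAR1 libraries lay below both libraries of the IgG dyskerin set. Wilson 95% intervals, which cover counting error only, ran over 0.994% to 1.02% and 1.30% to 1.33% for the dyskerin libraries and over 0.453% to 0.791% for the shallowest IgG library. Over the 4 antibody and 4 IgG libraries the means were 0.667% and 0.428%, a difference of 0.239 percentage points that an exact two-sided permutation test did not separate from the spread (p = 0.457, adjusted p = 0.891 over 6 measures). The smallest p this design allows is 0.0286. Both sets were pooled in that test, and their mean differences had opposite directions. Its p therefore does not compare an antibody with its own IgG set. These are shares of recovered crosslinks. The level of a gene also depends on how much of its RNA the nuclei held, which these libraries do not measure. The study sequenced U2OS nuclear RNA separately and reports that dyskerin and GAR1 bound mRNAs in proportion to their expression. With peaks normalized to region size, it ranks 5'UTRs after coding sequence and before 3'UTRs and introns.

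**Figure D1:**
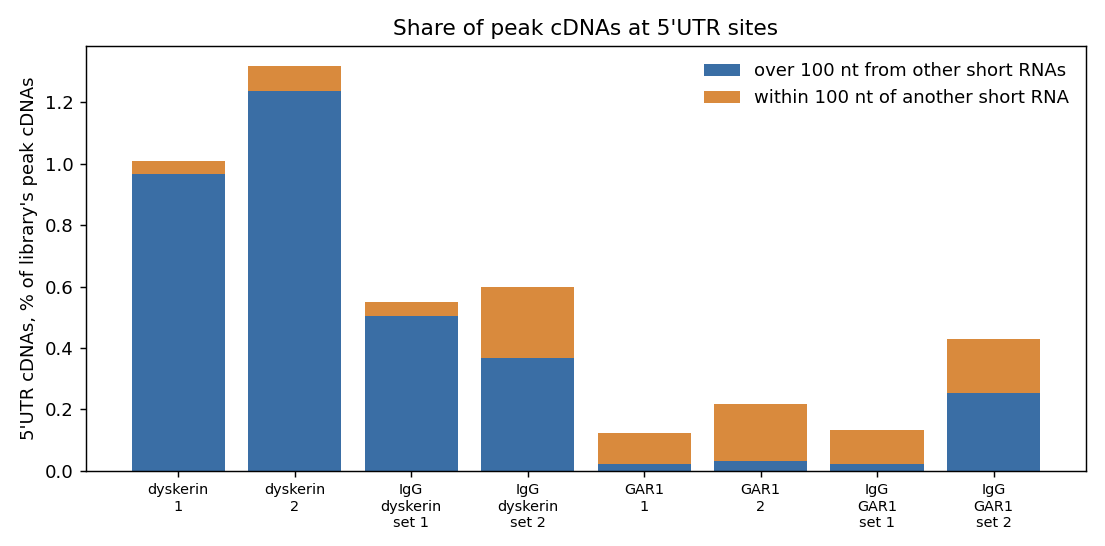
Percent of each library's peak cDNAs at 5'UTR sites (vertical axis), 1 bar per library, stacked into sites over 100 nt from other short RNAs (blue) and sites within 100 nt of one (orange). The dyskerin bars reach 1.01% and 1.32%, above the other 6, and orange fills most of the bar in both GAR1 libraries and in the deeper IgG GAR1 library.

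In number, the dyskerin libraries held 11131 and 14681 of the sites, the GAR1 libraries 180 and 577, the IgG dyskerin set 558 and 25, and the IgG GAR1 set 124 and 27. Most dyskerin sites rested on 1 cDNA, 72.6% and 70.7% of them, against 44.4% and 53.4% with GAR1 and 71.9% and 72.0% in the IgG dyskerin set. The sites were spread over 1488 and 1789 genes with dyskerin, and over 37 and 115 with GAR1. The 10 leading genes held 19.9% and 21.6% of 5'UTR cDNAs with dyskerin, against 90.6% and 90.4% with GAR1.

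Replicates shared few exact positions. Of the 22555 positions called in either dyskerin library, 3257 were called in both, which was 29.3% and 22.2% of each library's sites and 42.5% and 39% of its cDNAs. By gene, 994 of 2283 were shared. The GAR1 libraries shared 114 of 643 positions, which held 84% and 79.5% of their cDNAs, and 13 of 139 genes. The IgG dyskerin set shared 14 of 569 positions and the IgG GAR1 set 6 of 145. A dyskerin position coincided with 68.3% and 64.5% of GAR1 sites, and with 75.1% of the 558 sites of the deeper IgG dyskerin library.

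Sites inside a pair of snRNA genes held most of the 5'UTR cDNAs of GAR1. The first exon of a WDR74 transcript, a gene for a ribosome biogenesis factor, overlaps RNU2-2P on the same strand (chr11:62841619-62841809, 191 bases, GENCODE 44 on hg38), a gene for U2, the snRNA that pairs with the branch point in splicing. Its 143 sites held 605 and 1415 cDNAs with dyskerin, 390 and 3254 with GAR1, 61 and 19 in the IgG dyskerin set, and 315 and 19 in the IgG GAR1 set. That was 3.54% and 5.72% of 5'UTR cDNAs with dyskerin, 54.8% and 75.3% with GAR1, 7.57% and 38.8% in the IgG dyskerin set, and 79.7% and 41.3% in the IgG GAR1 set. U2 has other near-identical genes, and reads were allowed many alignments, so the copy of origin is uncertain and these sites cannot be assigned to the WDR74 mRNA.

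The C12orf57 transcript overlaps RNU7-1, the gene for the U7 snRNA of histone pre-mRNA processing (chr12:6943816-6943878, 63 bases, plus strand). Its 34 sites held 101 and 69 cDNAs with dyskerin, 187 and 418 with GAR1, 3 and 0 in the IgG dyskerin set, and 19 and 0 in the IgG GAR1 set. As levels, these were 59.6 and 36.8 CPM with dyskerin and 319 and 211 CPM with GAR1. It was the only 5'UTR feature called lower in dyskerin than in GAR1 (log2 fold change -2.46, SE 1.20, edgeR quasi-likelihood test, adjusted p = 0.0432), and the call was lost in 8 of 14 alternatives, which were TMM scaling (adjusted p = 0.0796), DESeq2 (0.907), no filter (0.0524), at least 50 counts (0.0745), sites of at least 2 cDNAs (0.0928), a replicate block (0.287) and leaving out either dyskerin library (0.590 and 0.668).

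Within 100 nt of a short non-coding RNA other than a snoRNA or scaRNA lay 218 of the positions, with 4.33% and 6.10% of 5'UTR cDNAs with dyskerin, 81.0% and 85.0% with GAR1, 8.44% and 38.8% in the IgG dyskerin set, and 84.6% and 41.3% in the IgG GAR1 set. Without them the 5'UTR share of peak cDNAs was 0.966% and 1.24% with dyskerin, 0.0231% and 0.0327% with GAR1, 0.504% and 0.367% in the IgG dyskerin set, and 0.0207% and 0.252% in the IgG GAR1 set. The GAR1 sites that remained numbered 79 and 422, and 44.3% and 58.5% of them coincided with a dyskerin position.

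DHRS2, NTM and TRA2A had the highest dyskerin levels after WDR74. DHRS2, a short-chain dehydrogenase, had 329 and 383 CPM with dyskerin, 0 and 11.1 CPM with GAR1, 369 and 0 CPM in the IgG dyskerin set, and none in the IgG GAR1 set. Its 254 sites covered 55.5% of the 458 eligible positions. NTM had 199 and 372 CPM with dyskerin, 41.0 and 18.7 CPM with GAR1, 293 and 0 CPM in the IgG dyskerin set, and 33.9 and 0 CPM in the IgG GAR1 set. TRA2A, a splicing regulator of the SR-like family, had 228 and 332 CPM with dyskerin, 10.2 and 13.7 CPM with GAR1, and 553 and 0 CPM in the IgG dyskerin set. In these 3 genes the deeper IgG library of the dyskerin set was as high as, or higher than, at least 1 dyskerin library.

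Of the 186 TRA2A sites, 172 lay in exon 3 of a transcript whose 5'UTR spans 5 exons, with 379 and 604 cDNAs with dyskerin. The other 14 lay in another transcript, whose 5'UTR has 1 exon, with 7 and 19 cDNAs. The same kind of levels held for ATN1, with 166 and 213 CPM with dyskerin and 164 and 0 CPM in the IgG dyskerin set, and for PTRH2, a mitochondrial peptidyl-tRNA hydrolase, with 200.1 and 152 CPM against 191 and 0 CPM. Of the PTRH2 cDNAs with dyskerin, 323 and 280 lay in exon 2 of 1 transcript, and 16 and 6 on another. U2AF2, which reads the polypyrimidine tract at 3' splice sites, had 121 and 127 CPM with dyskerin and 123 and 0 CPM in the IgG dyskerin set. Of its dyskerin cDNAs, 200 and 229 lay on 1 transcript, and 5 and 10 on another. PTRH2 and U2AF2 had no cDNA at called sites in either GAR1 library. Against a floor of 3 counts over both libraries, dyskerin was at least 151-fold and at least 106-fold higher, with scaling to peak cDNAs. Sites that were not called are absent, so these folds are for called sites only. On the same scaling, 92.6% of all features were called higher in dyskerin than in GAR1.

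In other genes the dyskerin levels lay further above those of the control libraries. ACTB, the gene of beta-actin, had 86.2 and 148 CPM with dyskerin, 0 and 13.2 CPM with GAR1, and 13.7 and 0 CPM in the IgG dyskerin set. Against GAR1 its log2 fold change was 3.82 (edgeR adjusted p = 2.23e-05) with scaling to peak cDNAs and -0.13 with TMM scaling, under which EEF1D and TPM1 also turned negative. SLC38A2, an amino acid transporter, had 78.5 and 88.5 CPM with dyskerin, none with GAR1, and 34.1 and 0 CPM in the IgG dyskerin set. NCL, nucleolin, had 34.2 and 98.1 CPM with dyskerin and no cDNA at called sites in the other 6. For called sites, this was at least 56.5-fold above GAR1 and at least 3.41-fold above the IgG dyskerin set. RCC1, the nucleotide exchange factor of Ran, had 59.6 and 99.7 CPM with dyskerin and none elsewhere, but all 40 of its sites also lie in an exon of SNHG3, a non-coding host gene of snoRNAs on the same strand, and the RNA of origin cannot be told apart.

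**Figure D2:**
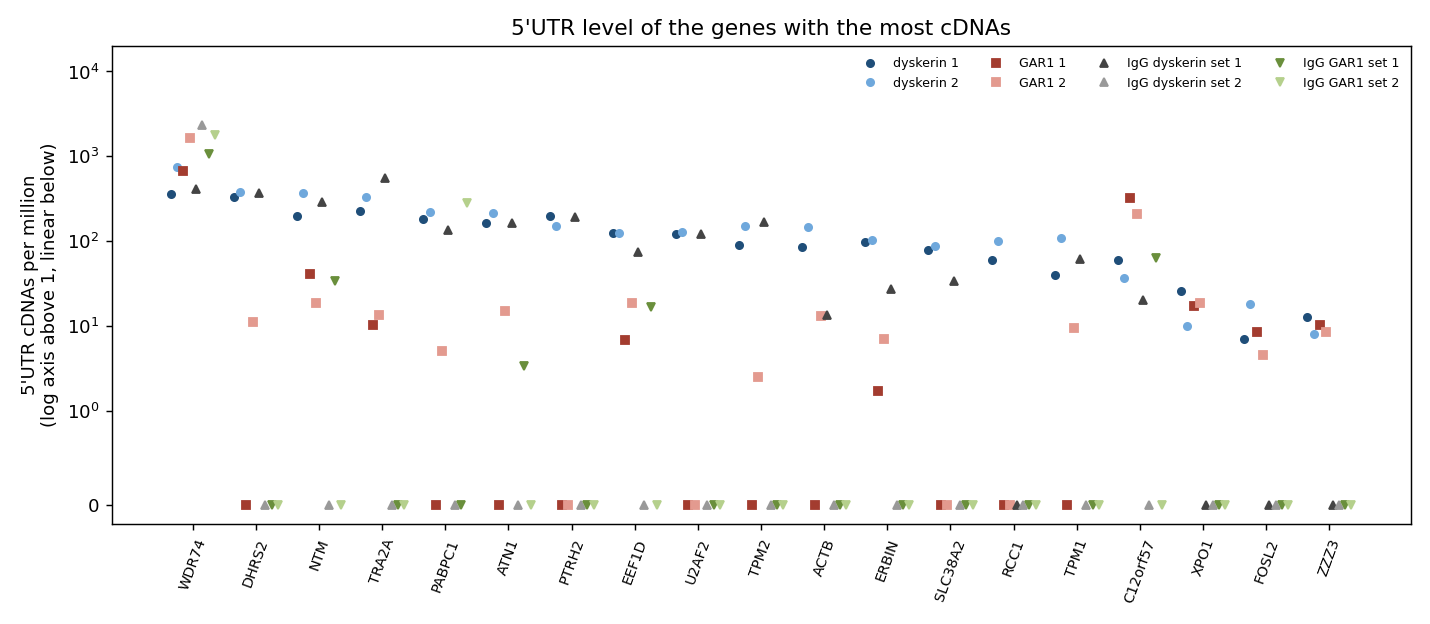
5'UTR level of the leading genes in CPM (vertical axis, logarithmic above 1 and linear below), 1 point for each of the 8 libraries. For ACTB and NTM both dyskerin points lie above both GAR1 points, while the second IgG library of the dyskerin set, where 3 cDNAs are worth 367 CPM, is at 0 for DHRS2, NTM and TRA2A.

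The 8 highest genes with sites in both GAR1 libraries were WDR74, C12orf57, NTM, XPO1, EEF1D, TRA2A, ZZZ3 and FOSL2. XPO1, the nuclear export receptor, had 26.0 and 10.1 CPM with dyskerin, 17.1 and 18.7 CPM with GAR1, and none in the IgG libraries. ZZZ3, a subunit of a histone acetyltransferase complex, had 13.0 and 8.0 CPM with dyskerin and 10.2 and 8.60 CPM with GAR1. FOSL2, an AP-1 transcription factor, had 7.08 and 18.1 CPM with dyskerin and 8.54 and 4.55 CPM with GAR1. For XPO1 the mean level in dyskerin was 1.01 times that in GAR1 (edgeR adjusted p = 0.999).

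Among genes with sites in both libraries of an IgG set, those after WDR74 rested on few cDNAs. ERCC1, a DNA repair endonuclease subunit, had 20.5 and 2444 CPM in the IgG dyskerin set, which was 3 and 20 cDNAs, and none in the antibody libraries. SRRM2, a nuclear speckle protein, had no 5'UTR cDNA with dyskerin and 34.1 and 0 CPM in the IgG dyskerin set. DKC1, the gene of dyskerin, had 0 and 1.60 CPM with dyskerin, and GAR1 had no 5'UTR site in any library.

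Across features, the comparison with the IgG sets asked which 5'UTRs were recovered more often with the antibody than with IgG. Of the 8631 features tested over all RNA classes, 313 were 5'UTRs, and all 313 had at least 10 cDNAs in both dyskerin libraries, so they entered the test through the group in which they were high. For dyskerin against its IgG set edgeR called 0 5'UTRs higher and 0 lower, against 0% and 0.0811% of all features. Without adjustment, 86 passed a p of 0.05 as higher and 1 as lower, where 33% and 0.626% of all features did, and DESeq2 called 0. ACTB was 3.19 on the log2 scale above IgG (SE 1.38, edgeR adjusted p = 0.144). With a minimum of 50 counts, 10 of 39 5'UTRs were called higher, where 21.6% of the 3747 features were. The genes called were NCL, UBE2D3, SKIL, RCC1, ZNF608, EEF1A1, AMIGO2, PCBP2, CCDC14 and PALS1. Each had no cDNA at called sites in the IgG dyskerin set, and its level in dyskerin was at least 1.69-fold to at least 4.11-fold that of IgG. Of the 73 and 97 PCBP2 cDNAs with dyskerin, 50 and 74 lay in a long non-coding RNA gene on the same strand. As for RCC1, the RNA of origin of these cannot be told apart.

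For GAR1 against its IgG set edgeR called 0 5'UTRs higher and 0 lower, against 0% of all features in each direction. DESeq2 called 0 5'UTRs too, while it called 68 of all 8631 features higher and 11 lower. Without adjustment, 2 5'UTRs passed an edgeR p of 0.05 as higher and 1 as lower, where 1.45% and 3.85% of all features did. Between dyskerin and GAR1, 307 of the 313 5'UTRs were called higher and 1 lower, while 92.6% and 2.29% of all features were, so the share called is near that of all features. DESeq2 called 60 of the 313 5'UTRs higher and 0 lower, against 4357 and 0 of all 8631 features, so the 5'UTR share was lower there. With a replicate block, 215 of the 313 were called higher and 0 lower, against 6727 and 96 of all 8631 features. Without either dyskerin library, 19 5'UTRs passed the filter. The median log2 fold change was 6.10 over the 5'UTRs and 6.57 over all features, and 3.37 over the 5'UTRs with the genes at 0 set to their bound, since 254 of them had no GAR1 cDNA and their fitted folds are no bounds.

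By function, the genes with sites in both dyskerin libraries were 994, or 5.21% of the 19082 gene symbols with an eligible 5'UTR. The SR, speckle and hnRNP list had 17 of 34, the cytoskeleton and extracellular matrix list 13 of 32 (40.6%), ribosomal proteins 31 of 79 (39.2%), glycolysis 6 of 17 (35.3%) and translation factors 12 of 40. Further down were mRNAs that host snoRNAs with 11 of 53 (20.8%), iron response element mRNAs with 1 of 6 (16.7%), immediate early genes with 4 of 27 (14.8%), chaperones with 3 of 25, nucleolar and H/ACA genes with 3 of 27 (11.1%) and mRNAs known for upstream reading frames with 2 of 19 (10.5%). The lists are of abundant mRNAs to different degrees, and the part of abundance in these shares was not tested.

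The SR, speckle and hnRNP list summed to 426 and 588 CPM with dyskerin, 10.2 and 29.9 CPM with GAR1, and 778 and 0 CPM in the IgG dyskerin set. Of its members that passed the count filter, 13 of 13 were called higher in dyskerin than in GAR1, as were 92.6% of all features. The ribosomal protein list summed to 241 and 319 CPM with dyskerin, 3.42 and 2.02 CPM with GAR1, and 75.1 and 0 CPM in the IgG dyskerin set, and 14 of its 14 tested members were called higher than GAR1, near the 92.6% of all features. Members of both lists passed the filter through the dyskerin libraries. RPS25, of the small subunit, had sites at 30 of 59 eligible bases and 19.5 and 25.1 CPM with dyskerin. Several members of these lists, and genes such as EEF1A1, GAPDH and ACTB, have processed copies elsewhere in the genome, and their counts are uncertain to that extent.

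Among translation factors, PABPC1, the poly(A) binding protein, had 184 and 219.7 CPM with dyskerin, 0 and 5.06 CPM with GAR1, 136 and 0 CPM in the IgG dyskerin set, and 0 and 280.3 CPM in the IgG GAR1 set. The 280.3 CPM rested on 3 cDNAs, the floor in that shallow library. EEF1A1, which delivers tRNA to the ribosome, had 30.1 and 63.5 CPM with dyskerin, 0 and 4.05 CPM with GAR1 and none in either IgG set. EEF2, the translocation factor, had 5.90 and 5.33 CPM with dyskerin and none elsewhere. The list's IgG cDNAs thus fell mostly on PABPC1 and EEF1D, and EEF1A1 and EEF2 had none.

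TPM1 and TPM2, the tropomyosins, had 40.1 and 109 CPM and 89.7 and 150.4 CPM with dyskerin, against 61.4 and 0 CPM and 171 and 0 CPM in the IgG dyskerin set. Of the glycolytic enzymes, GAPDH had 28.3 and 45.3 CPM with dyskerin, 0 and 5.06 CPM with GAR1 and none with IgG, and ENO1 had 19.5 and 20.3 CPM with dyskerin and none elsewhere. FTH1, the ferritin heavy chain whose 5'UTR carries an iron response element, had 9.45 and 12.3 CPM with dyskerin. ATF4, a stress transcription factor translated through upstream reading frames, had 0 and 10.1 CPM with dyskerin, so its level rested on 1 library.

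The sites were unevenly placed along the 5'UTR. Within 50 nt of the transcript start lay 13.5% and 15% of dyskerin sites, against 23% and 24.8% for even placement over the eligible positions of the same transcripts. Within 50 nt upstream of the start codon lay 35.1% and 38.6%, against 21.6% and 23.5%. The deeper library of the IgG dyskerin set, with 558 sites, had 8.60% near the start against 19.6% for even placement, and 37.8% near the start codon against 18.7%. In 5'UTRs of several exons, the first exon held 36.6% and 37.3% of dyskerin sites against 55.2% and 57.4%, and 36.2% of that IgG library's sites against 50.5%. The direction was the same in dyskerin and in this IgG library.

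For GAR1 these shares changed when the snRNA loci were left out. With all sites, 29.4% and 17.7% of GAR1 sites lay within 50 nt of the start, against 16.4% and 19.2% for even placement, and without those near a short RNA the shares were 10.1% and 10.4% against 19.6% and 21.4%. Near the start codon, the shares without short RNAs were 19.0% and 31.5% against 10.7% and 19.2%. Over 4 antibody and 4 IgG libraries the mean shares near the start were 18.9% and 16.6%, near the start codon 26.3% and 22.2%, and in the first exon 58.7% and 75.1%, with exact two-sided permutation p of 0.714, 0.657 and 0.314, each with an adjusted p of 0.891. The differences near the start and near the start codon turned negative without the short RNAs, at -8.06 and -4.74 percentage points, and the first-exon difference of -16.3 points became -3.58. Of GAR1 sites, the first exon held 88.4% and 72.6% against 57.1% and 64.3% for even placement, and without the short RNAs 71.4% and 59.3% against 72.7% and 72.8%.

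**Figure D3:**
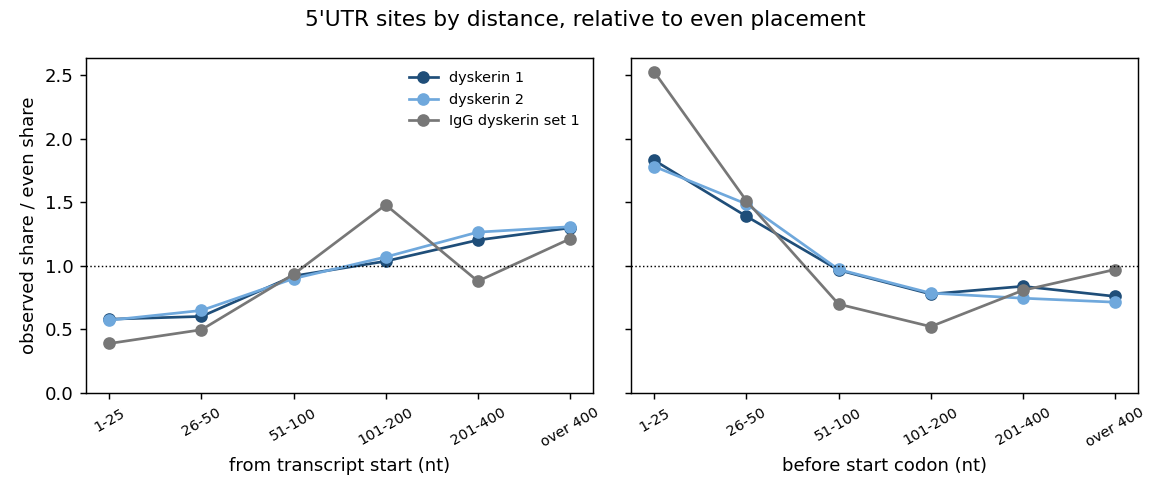
Ratio of observed sites to even placement (vertical axis, 1 for even) by distance in nt from the transcript start and from the start codon, for the dyskerin libraries and the deeper IgG dyskerin library. In the 1 to 25 nt bin the ratios are 0.580, 0.571 and 0.388 at the start and 1.83, 1.78 and 2.52 at the start codon.

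Around the start codon, site density was higher on the coding side than far upstream. Over 8894 transcripts the dyskerin libraries had 16.4 and 21.1 sites per 10000 positions in the bin starting 150 nt upstream, 31.3 and 49.1 in that starting 50 nt upstream, 61.5 and 81.1 in the last 10 nt before the codon, and 69.1 and 100.1 in the bin starting 140 nt into the coding sequence. The density of the 50 nt upstream over that of the 50 nt downstream was 0.698 and 0.722 with dyskerin, 0.673 and 0.924 with GAR1, 0.651 and 0.296 in the IgG dyskerin set, and 0.490 and 3.11 in the IgG GAR1 set, where the last value rests on 6 and 2 sites. Antibody and IgG libraries averaged 0.754 and 1.14 (exact permutation p = 1.00). Without the IgG library of 6 and 2 sites the means were 0.754 and 0.479, which turned the difference to 0.275 (exact permutation p = 0.0286, adjusted p = 0.171).

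**Figure D4:**
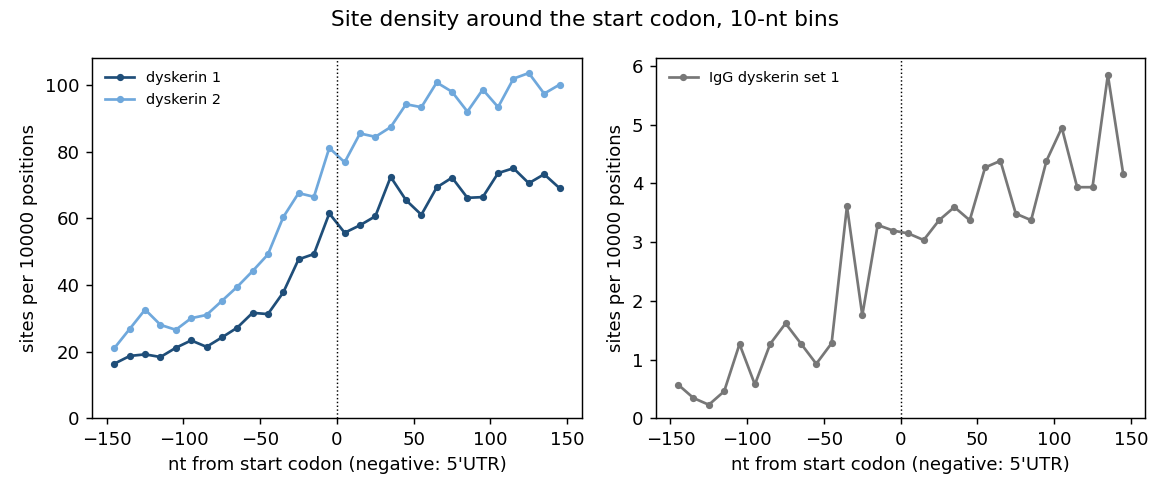
Sites per 10000 positions in 10-nt bins (vertical axes, with separate scales) by distance from the start codon in nt, 5'UTR negative, for both dyskerin libraries (left) and the deeper IgG dyskerin library (right). The dyskerin lines reach 61.5 and 81.1 in the last bin before the codon, and the IgG line is also higher in the coding sequence than far upstream.

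Genes differed in how their 5'UTR compared with their coding sequence. Per kb, TRA2A had 11.7 and 15.5 times the cDNA density of its coding sequence with dyskerin, NTM 11.2 and 12.2 times, and RPS25 5.71 and 5.19 times. ACTB had 0.388 and 0.547 times, EEF1D, a translation elongation factor subunit, 0.128 and 0.112 times, and NCL 0.061 and 0.111 times. The 5'UTR length was all eligible bases over the basic transcripts of a gene. It was 59 for RPS25, 585 for ACTB, 813 for NCL and 2431 for EEF1D. Alternative 5'UTRs without sites lower such a ratio, and ratios on single transcripts were not computed. In both dyskerin libraries the first 3 genes had more per kb of 5'UTR on this measure, and the last 3 less, than of coding sequence. In the deeper IgG dyskerin library, TRA2A and NTM had 81 and 43 5'UTR cDNAs and 0 in the coding sequence. EEF1D and ACTB had 0.0606 and 0.0655 times there, while RPS25 had 1 5'UTR cDNA and NCL 0. The 5'UTR cDNAs of TRA2A lay mostly on 1 of its transcripts.

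Uridine was the most frequent base at and just after the site. At the deposited position 33.1% and 33.7% of dyskerin sites had U, against 21.0% and 20.8% for eligible positions of the same transcripts, and 1 base downstream 39% and 39.5% did, against 21.0% and 20.7%. G stood there at 11.7% and 11.6% against 29.8% and 29.9%. The deeper IgG library of the dyskerin set had 42.8% U and 7.0% G at the same offset. U-rich windows, with at least 4 U in the 5 bases centred on the site, held 8.75% and 8.99% of dyskerin sites against 2.82% and 2.69%, and 10.9% of the sites of that IgG library against 2.78%. At the site, the mean U shares of 4 antibody and 4 IgG libraries were 34.9% and 32.9% (exact permutation p = 0.743, adjusted p = 0.891). Among the 12 strongest dyskerin sites, whose windows except that of PABPC1 are shown above, U stood at the site in 6, those of WDR74, NTM, DHRS2, RCC1, TPM2 and HNRNPH1. AUG triplets at the site were no more frequent than for even placement, at 1.56% and 1.42% against 2.13% and 1.97%.

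**Figure D5:**
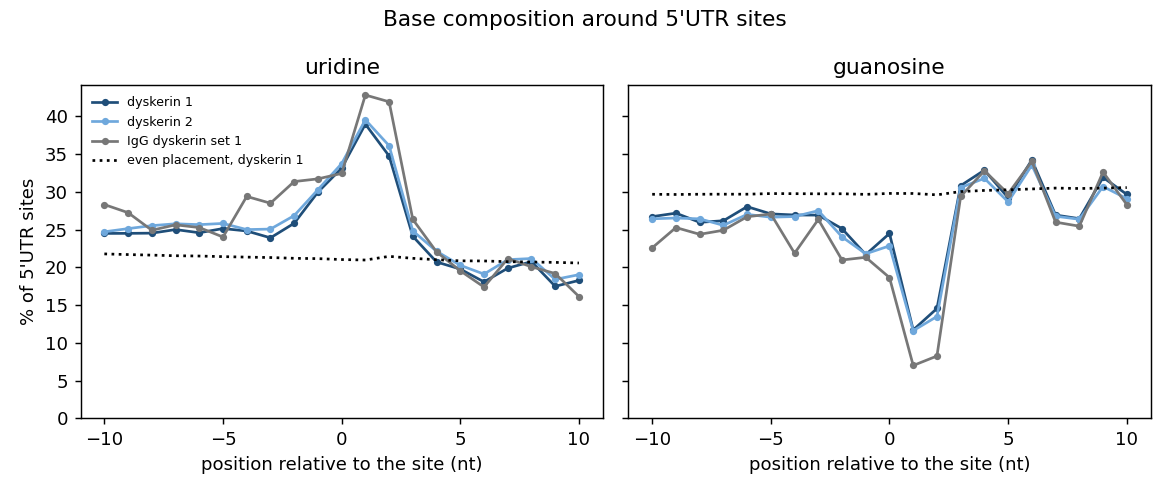
Percent of 5'UTR sites (vertical axis) with uridine (left) or guanosine (right) by position in nt relative to the site, for both dyskerin libraries and the deeper IgG dyskerin library, with even placement in dyskerin library 1 as a dotted line. U reaches 39% and 39.5% with dyskerin and 42.8% in the IgG library 1 base downstream.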

How the data were processed

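iCLIP was performed in U2OS nuclei with 2 libraries each for dyskerin, GAR1, IgG of the dyskerin set and IgG of the GAR1 set. Per the study's methods and the submitters' processing notes, the authors trimmed reads with Cutadapt (version not given), checked them with FastQC 0.11.9, aligned them with STAR 2.7.0e to GRCh38 allowing many alignments per read, and called significant sites in each library with iCount. The authors deposited a cDNA count for each 1-nt site, with no further normalization, so sites that iCount did not call are absent and cDNA counts of different positions are not a full record of coverage.

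Sites were placed on GENCODE 44 transcripts (hg38), and the snoRNA and scaRNA margin was 100 nt. Counts were summed by region and gene, scaled to total peak cDNAs and tested with the edgeR 4.0.16 quasi-likelihood test (R 4.3.3) over all 4 groups in 1 fit, keeping features with 10 or more counts in 2 or more libraries, and Benjamini-Hochberg adjustment over 8631 features at an adjusted p of 0.05. DESeq2 1.42.0, TMM scaling and other settings were alternatives. Per-library measures used an exact two-sided permutation test of 4 antibody against 4 IgG libraries, pooled over both sets (70 arrangements). Even placement was computed over the eligible positions of the same transcripts. Genes were named by level: the 15 highest in dyskerin, 8 in GAR1 and 4 in each IgG set, with a site in both libraries, up to 5 called per direction, fixed reference genes and the highest 2 to 4 of each list. The model fit was tested on simulated counts with equal depth in all libraries, a fixed spread, and large changes planted in well-covered features. That test does not show how the fit performs at the depth and spread of the IgG libraries. Members, lists and rules were chosen with earlier results of these data known. Wilson 95% intervals, computed with scipy 1.17.1, and floors of 3 counts cover counting error only.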

Additional observations from a re-analysis of the deposited data

How the results depend on the processing

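The 5'UTR share of peak cDNAs kept its direction under every alternative run, with differences between antibody and IgG libraries of 0.0218 to 0.421 percentage points when 1 library was left out. Both second IgG libraries held too few cDNAs to show most 5'UTRs, and none of the permutation tests could fall under 0.0286. Of all values recomputed, 330 kept their direction and side of the threshold, 46 lost significance, 31 changed sign, 8 counts moved by over 1.5 times and 1 gained significance. For dyskerin against GAR1, 313 5'UTRs were tested with DESeq2, 2358 without a filter, 39 with at least 50 counts and 139 with sites of at least 2 cDNAs. Over all features, calls higher and lower numbered 4357 and 0 of 8631 with DESeq2 and 11241 and 268 of 27712 without a filter. They numbered 3373 and 94 of 3747 with at least 50 counts, and 4915 and 136 of 5427 with sites of at least 2 cDNAs. For dyskerin against GAR1, 5'UTR calls in both directions numbered 60 with DESeq2, 615 without a filter, 36 with at least 50 counts, 136 with sites of at least 2 cDNAs, and 0 to 308 with 1 library left out. The 0 arose without either dyskerin replicate, where 19 5'UTR features passed the filter. For dyskerin against IgG the calls were 2 without a filter, both lower, 10 with at least 50 counts, and 0 to 0 with 1 library left out, and for GAR1 against IgG they were 0 in every setting.

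Replicate numbers did not pair the libraries (correlations of same-numbered deviations from -0.094 to 0.098), and with replicate number as a block 215 5'UTRs were called for dyskerin against GAR1, compared with 308 without it, and 0 for both comparisons with IgG. The difference in the share near the transcript start turned to -0.223 with sites of at least 2 cDNAs, -8.06 without sites near short RNAs, -1.82 weighted by cDNAs, -4.31 on MANE Select transcripts, -7.20 with a 100-nt window and, an alternative chosen after seeing the data, -8.03 without exons of non-coding genes. Near the start codon it turned to -4.74 without short RNAs, -7.68 on MANE Select and -4.93 without non-coding exons. For U at the site the difference became -5.80 when sites needed 3 cDNAs. The upstream to downstream density ratio differed by 0.243 with at least 2 cDNAs, 0.0414 weighted by cDNAs, 0.681 with a 25-nt window and 0.206 with a 100-nt window (exact permutation p = 0.0286, adjusted p = 0.171), and sites of at least 3 cDNAs gave no value. With 1 library left out the ranges were -1.20 to 6.66 near the start, -0.674 to 10.0 near the start codon, -29.3 to -8.95 for the first exon, -1.61 to 4.70 for U and -0.662 to 0.275 for the ratio. Against GAR1, the log2 fold change was 1.03 for WDR74 with DESeq2, -0.13 for ACTB, -0.62 for EEF1D and -0.32 for TPM1 with TMM, and for XPO1 2.20 with DESeq2, 0.00123 without a filter, 0.43 with sites of at least 2 cDNAs and -0.81 to 0.53 with 1 library left out. TMM factors ran from 0.0615 to 3.57, and the median log2 fold change of all features against GAR1 was 5.90 with TMM, 8.58 with DESeq2 and 6.57 as reported. The cause of these changes was not tested.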
